A study of Mus musculus with 3 samples.

Results

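The 10 genes described here encode cathepsins (Ctss, Ctsl, Ctsb, Ctsc, Ctsh, Ctsz, Ctsd and Ctsa), legumain (Lgmn) and cystatin C (Cst3). They were chosen by gene symbol, and all 10 were found among the 55401 genes listed in the count tables. Their levels were followed across macrophage and dendritic cell subtypes, lymphocytes and ages in leukocytes of mouse melanomas. YUMM1.7, a transplantable mouse melanoma line, was injected subcutaneously at 500000 cells into mice of 4, 12 or 20 months, 7 mice per age, and tumours were taken after 18 days. Live CD45.2-positive cells were sorted and sequenced with a droplet 3′ kit (PIP-seq), giving 1 library per age. The 3 groups therefore share the tumour line, its dose and the harvest day and differ in the labelled age; strain and sex are not given in the sources used here. The labels do not say whether the 7 mice were pooled or how much each gave, so no difference between ages has a replicate check and none was tested.

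Cathepsins are proteases of endosomes and lysosomes. Most are cysteine proteases of the papain family, whereas cathepsin D is an aspartic protease and cathepsin A a serine carboxypeptidase. They are made as inactive precursors, and legumain, a cysteine protease that cuts after asparagine, takes part in maturing several of them. Cystatin C is a secreted inhibitor of the papain-family enzymes. In macrophages and dendritic cells these proteases degrade ingested protein, and cathepsin S trims the invariant chain (Cd74) that guards class II molecules before peptide loading.

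In order of age, 14393, 14653 and 14684 cells were deposited, their counts summed to 110371225, 127850782 and 119873564, and any pair of libraries shared 2 to 4 cell barcodes. After filtering, 13528, 13774 and 13803 cells remained, and clusters were named from marker genes. The monocyte/macrophage-like class had 5260, 4184 and 5088 cells in 11 clusters, each called here by its 2 leading genes. Some of these clusters carry monocyte markers, and the class is called macrophages below for short. T cell-like cells numbered 4016, 4816 and 4205, NK cell-like cells 2354, 2140 and 1640, and named dendritic cell-like cells 705, 644 and 703. The sort was largely of leukocytes: 51, 31 and 46 cells were fibroblast-like, no cluster was melanoma-like by its marker list, and the 6 melanoma markers together came to 4.26 to 5.02 CPM in monocyte/macrophage-like cells. Tumour cells with little of these markers would not be seen in this way. A level below is the summed counts of a gene in a class of 1 library, scaled to 1000000 counts of that class (CPM). The intervals given, at 95%, reflect only the error of counting.

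On GRCm38 with the GENCODE M21 annotation, all 10 genes are protein-coding. Ctss (ENSMUSG00000038642.10) lies at chr3:95526786-95556403 and Ctsl (ENSMUSG00000021477.9) at chr13:64359337-64370890. Ctsb (ENSMUSG00000021939.8) lies at chr14:63122462-63145923 and Ctsc (ENSMUSG00000030560.17) at chr7:88278085-88310888. Ctsh (ENSMUSG00000032359.14) lies at chr9:90054152-90076089 and Ctsz (ENSMUSG00000016256.10) at chr2:174427493-174439039. Ctsd (ENSMUSG00000007891.16) lies at chr7:142375911-142388038 and Ctsa (ENSMUSG00000017760.16) at chr2:164832873-164841032. Lgmn (ENSMUSG00000021190.14) lies at chr12:102394084-102439813 and Cst3 (ENSMUSG00000027447.6) at chr2:148871722-148875692.

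Counts of Ctsd are uncertain. Gm49369, annotated on the same strand at chr7:142371096-142382667, shares 808 exonic bases with it, which are 34.4% of the exonic bases of Ctsd and 0% of its last 500 exonic bases, the end that a 3′ kit reads. Gm49369 had 1.02, 0.971 and 0.967 counts per Ctsd count in the whole libraries, so the genes could not be told apart by level. How shared reads were assigned, and whether strand was used, is not given in the sources used here. Without strand, the last 500 exonic bases of Ctsb overlap fully with the opposite-strand gene Fdft1, which had 10.1, 12.4 and 11.8 CPM in monocyte/macrophage-like cells. Ctsa shares 495 exonic bases with the opposite-strand gene Pltp, at 83.2, 113 and 111 CPM in the same cells. Ctsl shares 1742 exonic bases with the antisense gene Gm47123, which had 2, 3 and 5 counts in those cells.

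To show the DNA next to the genes, the promoters of Ctss and Ctsc are printed because these members had the closest patterns of level among the cysteine cathepsins. The windows are the 250 bases before the RefSeq transcription start (GRCm38.p6), both on the plus strand: chr3:95526536-95526785 for Ctss and chr7:88277835-88278084 for Ctsc. Capitals mark, on either strand, GAGGAA, the core of sites bound by the myeloid factor PU.1, and GAAA followed after any 2 bases by GAAA, the core of interferon-stimulated response elements.
Ctss: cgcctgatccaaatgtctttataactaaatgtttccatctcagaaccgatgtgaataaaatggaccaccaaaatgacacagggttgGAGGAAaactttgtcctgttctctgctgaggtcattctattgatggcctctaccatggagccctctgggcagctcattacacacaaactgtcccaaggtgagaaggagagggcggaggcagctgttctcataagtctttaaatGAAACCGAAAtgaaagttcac
Ctsc: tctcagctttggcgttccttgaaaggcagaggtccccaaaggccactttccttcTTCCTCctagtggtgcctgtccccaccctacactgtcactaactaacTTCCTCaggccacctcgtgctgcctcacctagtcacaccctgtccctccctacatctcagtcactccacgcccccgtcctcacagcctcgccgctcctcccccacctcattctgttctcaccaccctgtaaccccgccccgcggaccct
Ctss held 1 GAGGAA and 1 GAAA pair, and Ctsc held 2 GAGGAA. Among promoters in general, GAGGAA occurred in 23.3% of all 32851 such windows of mouse genes and the GAAA pair in 2.98%. The longer GAGGAAGT, which contains GAGGAA, was in 2.44% of windows and in Ctsc. A match is a description of the letters and not a site.

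CACGTG, the core of the element bound by the lysosome gene regulators of the Tfeb family, stood in 4 of the 10 windows of the 8 members with a RefSeq entry, 1 each of Ctsa, Ctsd, Ctsl and Lgmn, against 6.02% of all windows. Ctsa and Lgmn have another window without it. The 30 bases around 4 of these matches are shown 5′ to 3′ on the strand of the gene, with CACGTG in capitals. They lie at chr2:164833743-164833772 (plus strand, Ctsa), chr7:142387908-142387937 (minus strand, Ctsd), chr13:64370739-64370768 (minus strand, Ctsl) and chr12:102439124-102439153 (minus strand, Lgmn).
Ctsa: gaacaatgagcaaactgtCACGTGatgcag
Ctsd: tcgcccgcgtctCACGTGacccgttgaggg
Ctsl: ggcgttagaagcCACGTGctgatctaaatt
Lgmn: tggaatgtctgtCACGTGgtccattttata
The longer TCACGTGA, which contains CACGTG, was in the windows of Ctsa and Ctsd and in 0.785% of all windows. The element lay 6 bases before a RefSeq start of Ctsa, 92 before that of Ctsd, 230 before that of Ctsl and 43 before 1 of Lgmn. The windows of Ctsa, Ctsl and Lgmn that hold it lie wholly inside the GENCODE span of their gene, and that of Ctsd partly. For Ctsl the window is chr13:64370521-64370770, in a gene that reaches 64370890. A match there is thus not shown to be in a promoter. The bases after this start of Lgmn were not found in its GENCODE transcripts, unlike those of the other windows. Finding such bases does not show a start, since the bases of an internal exon would be found too. Ctsd had another CACGTG 239 bases before its start. These 4 genes did not share a pattern of level: Lgmn and Ctsa were highest in a macrophage cluster, Ctsl in fibroblast-like cells and Ctsd outside the macrophages, as given next.

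Cathepsin S, an endopeptidase that stays active at neutral pH, was high in most macrophage clusters. Ctss was at 7095, 6942 and 7678 CPM in monocyte/macrophage-like cells at 4, 12 and 20 months. It was at 3509, 3003 and 3384 CPM in type 2 dendritic cell-like cells, and at 1193, 1037 and 1095 CPM in type 1 cells, which were the lowest of the named dendritic cell-like classes. As a whole class, macrophages thus had more than any named dendritic class in every library. Among macrophage clusters Ctss ranged from a mean of 8671 CPM over the 3 libraries in Cxcl11 Ccl12 cells to 2898 CPM in F13a1 Fn1 cells. That lowest mean, in a cluster with monocyte markers, lies below the values of type 2 dendritic cell-like cells. The 7 highest clusters, down to Chil3 Lrp1 at 7426 CPM, each overlapped the next in the order over the 3 libraries. Ace Ear1 cells, with nonclassical monocyte markers, followed at 5870 CPM without overlap.

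Cathepsin L, a lysosomal endopeptidase, had a different distribution. Its highest levels were in fibroblast-like cells, at 663, 520 and 651 CPM, and in plasmacytoid dendritic cell-like cells, at 604, 530 and 514 CPM, from 61, 57 and 52 cells. These classes overlapped and stood above every macrophage cluster. Among macrophages Mmp12 Arg1 cells led at 323, 338 and 381 CPM, followed by Pf4 Cd81 cells at 216, 209 and 274 CPM. Type 2 dendritic cell-like cells had 33.8, 29.7 and 38.7 CPM. A Ctss count was accompanied by 0.0153, 0.0181 and 0.0242 Ctsl counts in monocyte/macrophage-like cells and by 0.00964, 0.00988 and 0.0114 in type 2 dendritic cell-like cells.

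Cathepsin B, an endopeptidase that also trims dipeptides from the carboxyl end, shared features of both. Ctsb was at 2499, 2315 and 2244 CPM in Pf4 Cd81 macrophages, which carry C1q macrophage markers, and overlapped with Mmp12 Arg1 cells at 2305, 2207 and 1726 CPM. Plasmacytoid dendritic cell-like cells came next with 1628, 1590 and 1641 CPM, without overlap with the clusters above them. The other named dendritic cell-like classes lay far lower, between 303 CPM in type 1 cells at 20 months and 468 CPM in type 2 cells at 4 months.

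The exopeptidases encoded by Ctsc, Ctsh and Ctsz had their highest mean level in Pf4 Cd81 macrophages but differed among dendritic cells. Ctsc encodes dipeptidyl peptidase I, which activates granule serine proteases. It was at 1869, 1729 and 1755 CPM in Pf4 Cd81 cells, overlapping with Cxcl9 Acod1 and Mmp12 Arg1 cells, and at 349, 367 and 338 CPM in type 2 dendritic cell-like cells. NK cell-like cells, which hold those granule proteases, had 159, 152 and 159 CPM of Ctsc. These were 12.0%, 11.8% and 10.8% of its macrophage level, where 12 macrophage marker genes reached at most 8.27%, 8.27% and 15.3% in NK cell-like cells. The 20-month value thus lies within the range of the markers. At that age the upper end was set by Mrc1 alone, a scarce transcript at 5.67 CPM in NK cell-like cells, and the next marker, Adgre1, was at 9.58%. Ctsh, an aminopeptidase, was at 1279, 1060 and 1030 CPM in Pf4 Cd81 cells, above every other cluster with no overlap. It was also high in mature dendritic cell-like cells, at 781, 667 and 658 CPM. Ctsz, a carboxypeptidase, was at 1382, 1304 and 1215 CPM in Pf4 Cd81 cells and at 906, 851 and 685 CPM in mature dendritic cell-like cells. In the whole macrophage class Ctsh was at 688, 711 and 757 CPM and Ctsz at 997, 1014 and 993 CPM, so that Ctsh overlapped between these cell types and Ctsz was lower in the mature cells without overlap. Ctsc, in contrast, was far lower in mature dendritic cells: it was at 230, 219 and 203 CPM against 1324, 1288 and 1473 CPM in macrophages.

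Cathepsin A, which also protects lysosomal β-galactosidase and neuraminidase, was highest in Pf4 Cd81 cells, at 532, 481 and 467 CPM and with no overlap. Its lowest mean was in type 1 dendritic cell-like cells, at 56.3, 71.8 and 83.5 CPM, which overlapped with mature cells at 66.4, 84.3 and 75.4 CPM. Reads of Ctsd, with the uncertainty given above, were lower in macrophages than in T cell-like and NK cell-like cells. They were at 96.0, 132 and 137 CPM in monocyte/macrophage-like cells, 215, 238 and 223 CPM in T cell-like cells and 244, 275 and 249 CPM in NK cell-like cells. The granzyme-rich Gzmd Gzmf cluster of NK cell-like cells had 335, 359 and 316 CPM, above all other clusters in the order. Ctsd was the only member of the 10 that was not higher in macrophages than in T cell-like cells in every library. Gm49369 had 0.940 to 1.05 counts per Ctsd count in these 3 classes.

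Legumain separated the macrophage subtypes most widely. Lgmn was at 3388, 3039 and 3155 CPM in Pf4 Cd81 cells, with no overlap with Mmp12 Arg1 cells at 2032, 1806 and 2111 CPM. At the low end were Slpi Vcan cells with 400, 390 and 480 CPM and F13a1 Fn1 cells with 230, 216 and 277 CPM, clusters that carry monocyte markers. With each cell thinned to 3000 counts, 100% of Pf4 Cd81 cells had a Lgmn count in each library, against 43.7%, 42.5% and 53.6% of F13a1 Fn1 cells. Among dendritic cells Lgmn was highest in the mature class, at 967, 721 and 846 CPM, whereas type 2 cells had 256, 239 and 258 CPM and type 1 cells 159, 165 and 177 CPM.

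Cystatin C was the only member with its highest mean level in a dendritic cluster. Cst3 was at 15241, 13248 and 15084 CPM in mature dendritic cell-like cells and at 11216, 12134 and 11574 CPM in type 1 dendritic cell-like cells. Type 2 cells had 3506, 4489 and 5011 CPM and the whole macrophage class 1794, 1970 and 1983 CPM. These classes were in the same order in each library and did not overlap. Plasmacytoid cells stood apart from the other dendritic cells, at 661, 673 and 740 CPM. Mature dendritic cell-like cells gave 1.01%, 1.35% and 0.766% of all counts but 11.6%, 13.6% and 7.91% of the Cst3 counts. There were 9.40, 11.7 and 10.6 Cst3 counts per Ctss count in type 1 cells and 8.57, 8.42 and 9.07 in mature cells. In macrophages the ratio was 0.253, 0.284 and 0.258.

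**Figure D1:**
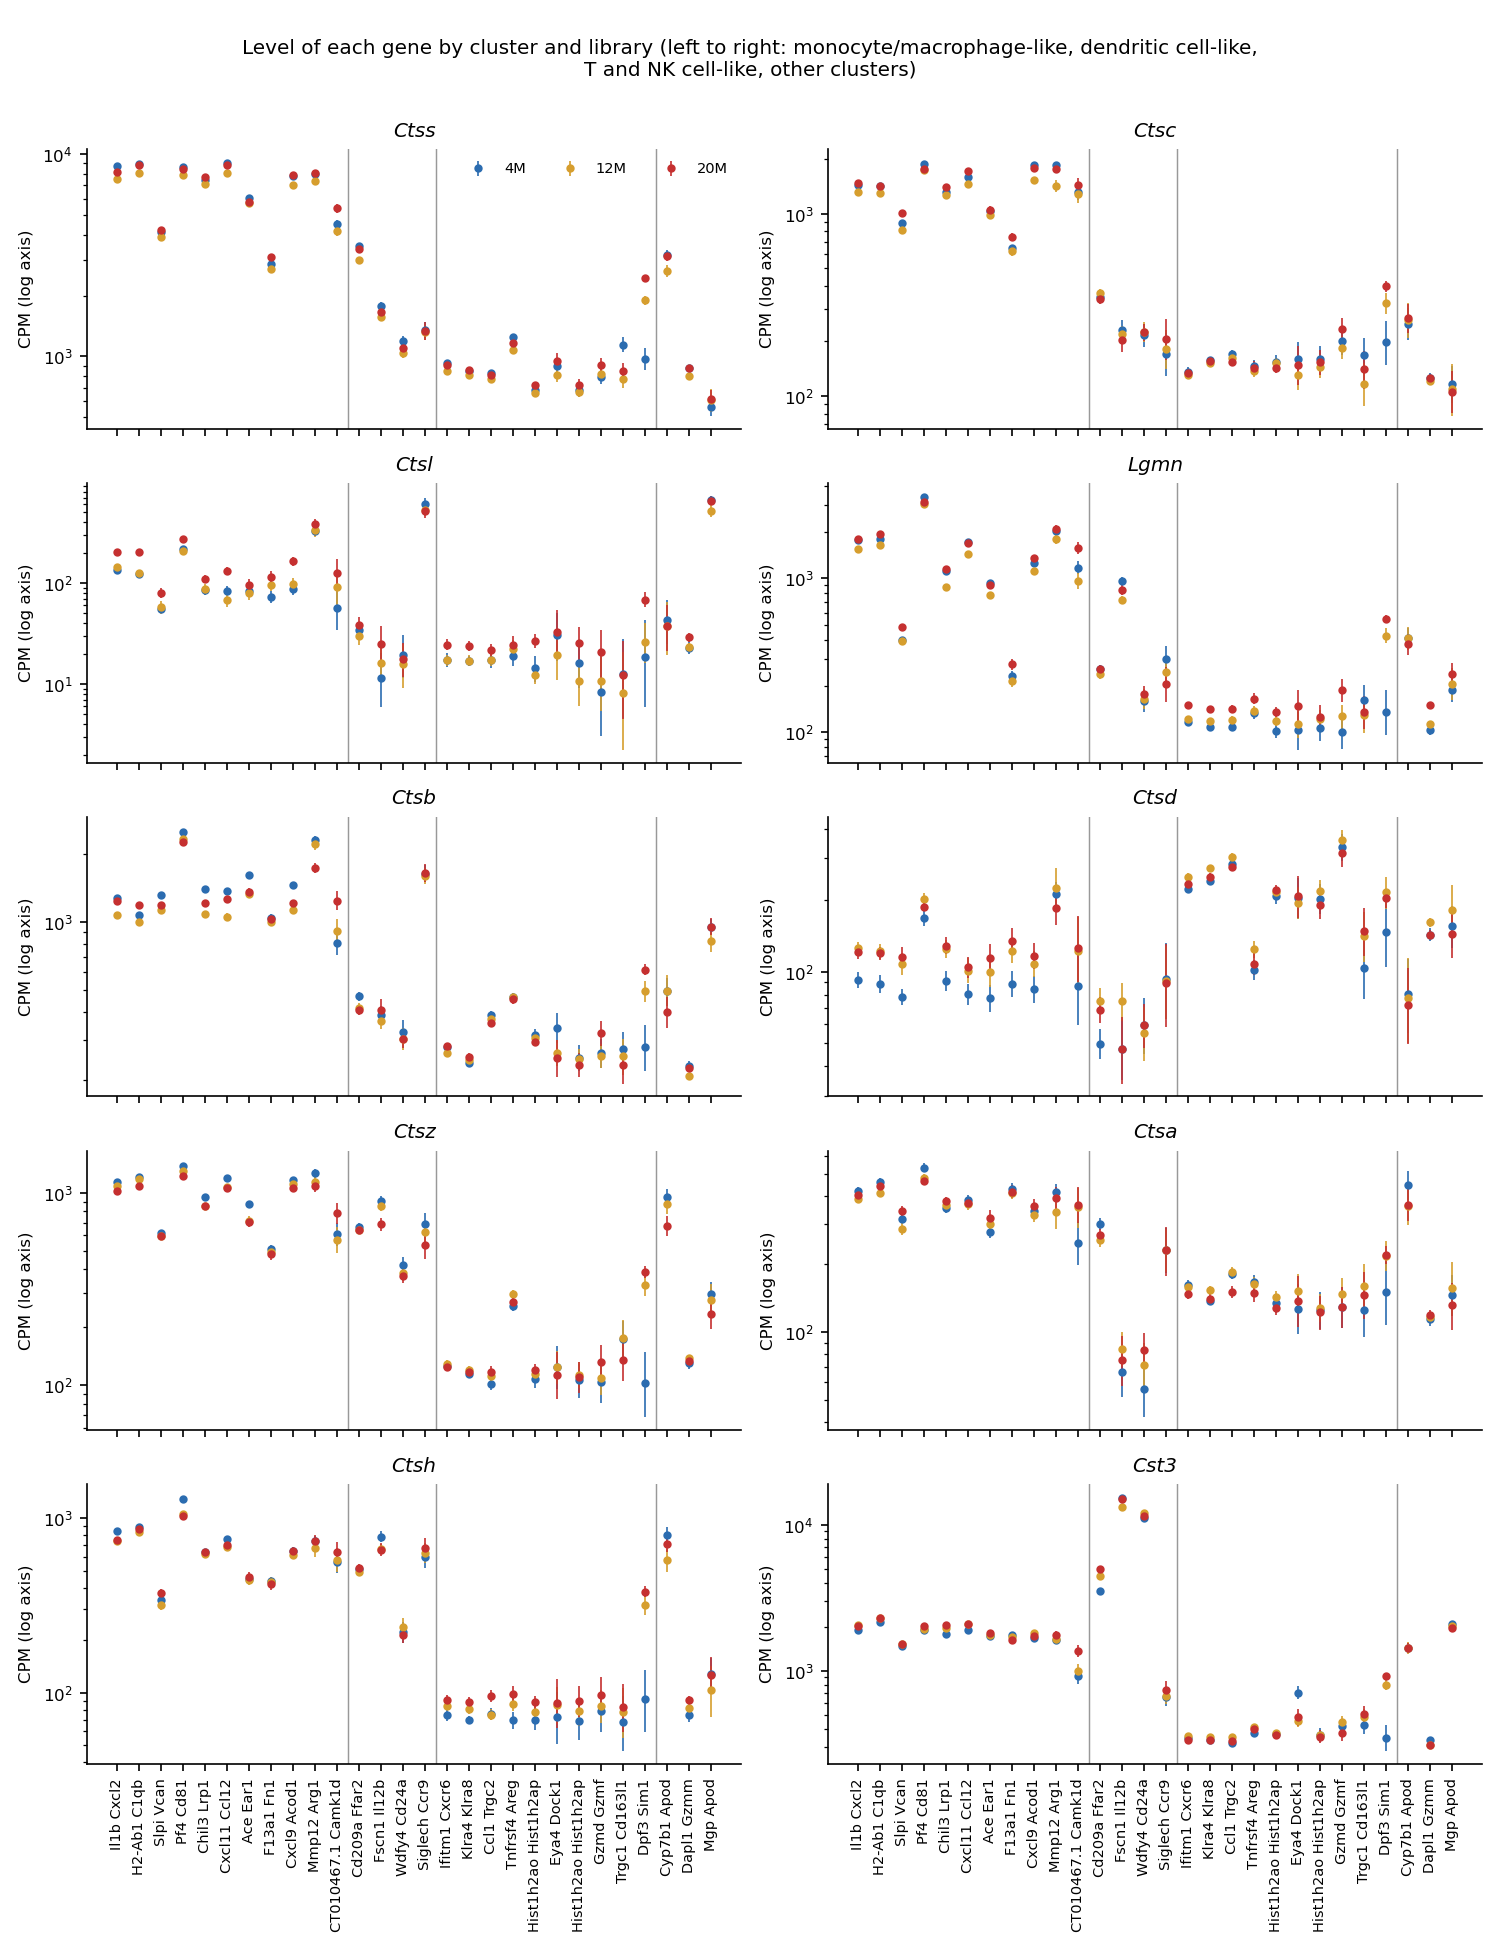
Level of each gene, as CPM on a log axis, in every cluster with enough cells, for the libraries of 4 months (blue), 12 months (yellow) and 20 months (red); points are single libraries and bars are 95% counting intervals. Lgmn is highest in the Pf4 Cd81 macrophage cluster, at 3039 to 3388 CPM, while Cst3 is highest in the Fscn1 Il12b and Wdfy4 Cd24a dendritic clusters and Ctsd lies higher in most lymphocyte clusters than in most macrophage clusters.

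Lymphocytes need a background, since RNA free in droplets gives counts in cells that do not express a gene. For 12 macrophage marker genes the level in T cell-like cells was 5.31% to 17.0% of that in monocyte/macrophage-like cells over the 3 libraries, and the medians were 7.90%, 7.96% and 9.65%. The upper end was set by Mrc1, a scarce transcript at 2.31 to 6.08 CPM in T cell-like cells. Lgmn in T cell-like cells was at 8.33%, 8.66% and 9.41% of its macrophage level, close to the markers' median, and is read as background there. Ctss, Ctsc, Ctsh, Ctsz and Ctsl were between 10.7% and 16.0%, inside the range over the 3 libraries. By that range no level of their own is shown for the T cell-like class as a whole. The range depends on Mrc1: the next markers were at 9.455% (Adgre1), 9.3% (Csf1r) and 11.33% (Adgre1) in order of age. These members lay above those values in every library, except Ctsc at 20 months, at 10.8%. At 12 months alone, where the markers reached 11.5%, Ctss at 12.1%, Ctsh at 12.0%, Ctsz at 14.7% and Ctsl at 13.6% were above them. Ctsb at 24.5%, 26.0% and 23.4%, Ctsa at 42.0%, 42.5% and 36.3%, and Cst3 at 19.8%, 19.2% and 19.8% lay above the range in every library. The Dapl1 Gzmm cluster of 4964 cells is unnamed but has T cell markers. Its top genes were the haemoglobin genes Hbb-bs, Hba-a1, Hba-a2 and Hbb-bt, which the name used here passes over. The part of haemoglobin RNA in its levels was not tested. This cluster is outside the T cell-like class and had lower levels of Ctsb, Cst3 and Ctsa. Ctsb was at 231, 207 and 226 CPM in it, against 348, 332 and 344 CPM in T cell-like cells. Cst3 was at 334, 309 and 310 CPM against 355, 379 and 392 CPM. Ctsa was at 114.5, 116 and 119 CPM against 163, 164 and 149 CPM. The percentages above do not cover that cluster. Median depths were 5107, 5989 and 5736 counts in T cell-like cells and 7632, 8648 and 7930 in macrophages. Regulatory T cell-like cells, of the Tnfrsf4 Areg cluster, had more Ctsb and Ctsz than the other T cell-like cells: Ctsz was at 257, 297 and 272 CPM against 115, 125 and 142 CPM. Ctsb was at 465, 463 and 456 CPM there against 325, 312 and 331 CPM. These levels did not overlap between the cell groups over the 3 libraries. In macrophages Ctsz was at 997, 1014 and 993 CPM. Its share in regulatory T cell-like cells was thus above the highest marker share of the T cell-like class. The marker shares were not taken in regulatory T cell-like cells alone.

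**Figure D2:**
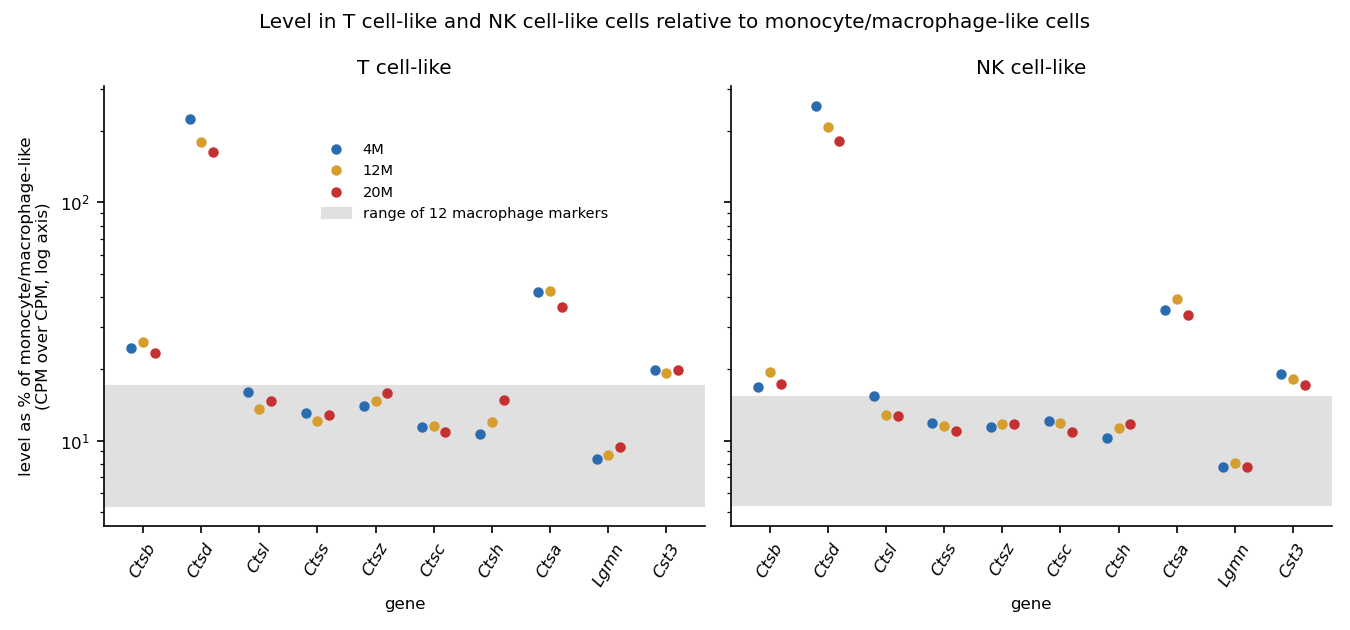
Level of each gene in T cell-like (left) and NK cell-like cells (right) as a percentage of its level in monocyte/macrophage-like cells of the same library, on a log axis; points are single libraries and the grey band is the range of 12 macrophage marker genes. Lgmn lies inside the band in both panels, at 8.33% to 9.41% in T cell-like cells, Ctsb, Cst3, Ctsa and Ctsd lie above it, and Ctsd exceeds 100% in all 3 libraries.

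The study's title names age and tumour macrophages, and the age comparison was made in the monocyte/macrophage-like class. A gene was counted as past the fold if its CPM differed at least 1.5-fold in either direction, among genes at 50 CPM or more in 1 of the libraries compared. At 12 months 0 of the 10 members were past 1.5-fold, where 3.39% of 3274 genes were. At 20 months 1 of 10 was, Ctsl, where 3.36% of 3269 genes were. The median log2 ratio of the members was 0.04 at 12 months and 0.14 at 20 months, against -0.02 and -0.04 over all genes. The 10 members together made up 15302, 15329 and 16935 CPM, a log2 ratio at 20 months of 0.15 (0.14 to 0.15). With 1 library per age these are differences between libraries, with no test.

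Ctsl was at 108, 126 and 186 CPM in the class, so that the 20-month library stood above both others. The log2 ratio of 20 to 4 months was 0.78 (0.73 to 0.83), a 1.72-fold difference, and at 12 months it was 0.21 (0.15 to 0.27). The ratio at 20 months was above 0 in 11 of 11 clusters, with a median of 0.60, a range of 0.18 to 1.16 and an interval above 0 in 10 clusters. With cells thinned to 3000 counts, 23.7% (22.6% to 24.9%), 27.0% (25.7% to 28.4%) and 36.6% (35.3% to 38.0%) had a Ctsl count, by exact binomial intervals. Without thinning these shares were 45.4%, 54.5% and 63.4%. Thinned T cell-like cells had 5.30%, 4.57% and 6.94%. With the cluster shares held at those of the 4-month library the log2 ratio was 0.54, below 1.5-fold.

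Lgmn was at 1390, 1484 and 1847 CPM, with a log2 ratio at 20 months of 0.41 (0.40 to 0.43). Inside the clusters it differed far less: the median log2 ratio of the 11 clusters was 0.05, and 8 of 11 were above 0. In the Pf4 Cd81 cluster, where Lgmn was highest, the ratio was -0.10 (-0.13 to -0.07). That cluster had 352, 506 and 1019 cells, while Slpi Vcan cells, low in Lgmn, numbered 1015, 399 and 480. With cluster shares held at those of the 4-month library, the Lgmn ratio at 20 months was 0.04, and without the Pf4 Cd81 cluster it was 0.23. At 12 months the class ratio was 0.09, while 0 of 11 clusters were above 0 and their median was -0.19.

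**Figure D3:**
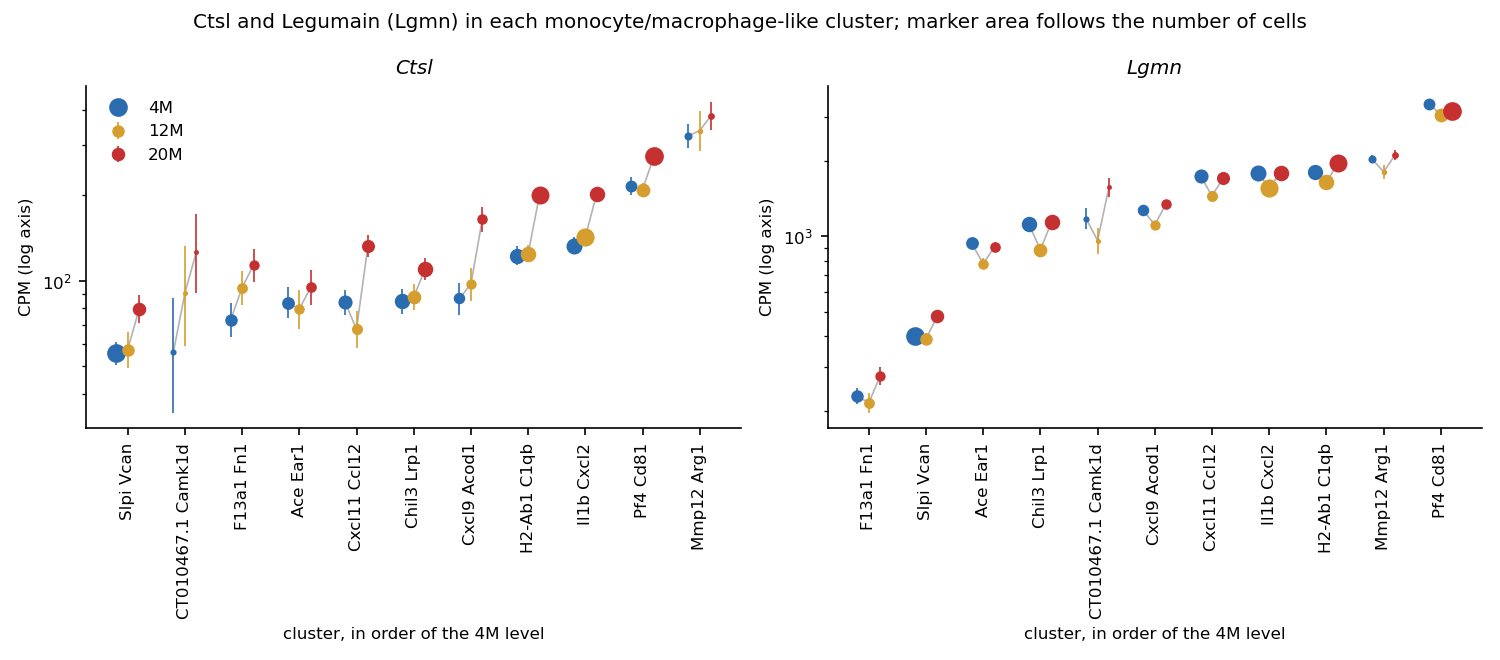
Level of Ctsl (left) and Lgmn (right) in each monocyte/macrophage-like cluster, as CPM on a log axis, with clusters ordered by the 4-month level, marker area following the number of cells and bars giving 95% counting intervals. The 20-month point of Ctsl lies above the 4-month point in all 11 clusters, whereas for Lgmn the points of a cluster lie closer together, and the Pf4 Cd81 cluster holds 352 cells at 4 months and 1019 at 20 months.

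Of the remaining members in macrophages, Ctsd counts were at 96.0, 132 and 137 CPM, with log2 ratios of 0.46 and 0.52 and values above 0 in 11 of 11 clusters at 12 months and 10 of 11 at 20 months. Summed with the counts of Gm49369 the ratios were 0.43 and 0.49. Cst3 was 0.14 higher on the log2 scale at each later age, with 10 of 11 clusters above 0 at both. Ctsb was at 1421, 1275 and 1471 CPM, with class ratios of -0.16 and 0.05. Inside clusters Ctsb was lower at both ages: 1 of 11 was above 0 at 12 months and 2 of 11 at 20 months, with medians of -0.22 and -0.15. Ctsz was above 0 in 1 of 11 clusters at 20 months, with a median of -0.15, and its class ratio was -0.01. Ctss, Ctsc, Ctsh and Ctsa had class ratios between -0.04 and 0.15. At 12 months Ctss, Ctsc and Ctsz were above 0 in 0 of 11 clusters.

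Markers of lymphocytes in the macrophage class also differed between libraries. The 8 NK cell markers summed to 276, 231 and 144 CPM in that class and the 8 T cell markers to 625, 979 and 828 CPM, with 0 of either list at 0 counts. Their part in the ratios of the members was not tested. With the T cell-like level of the same library subtracted, the ratio of Ctsl at 20 months was 0.80.

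**Figure D4:**
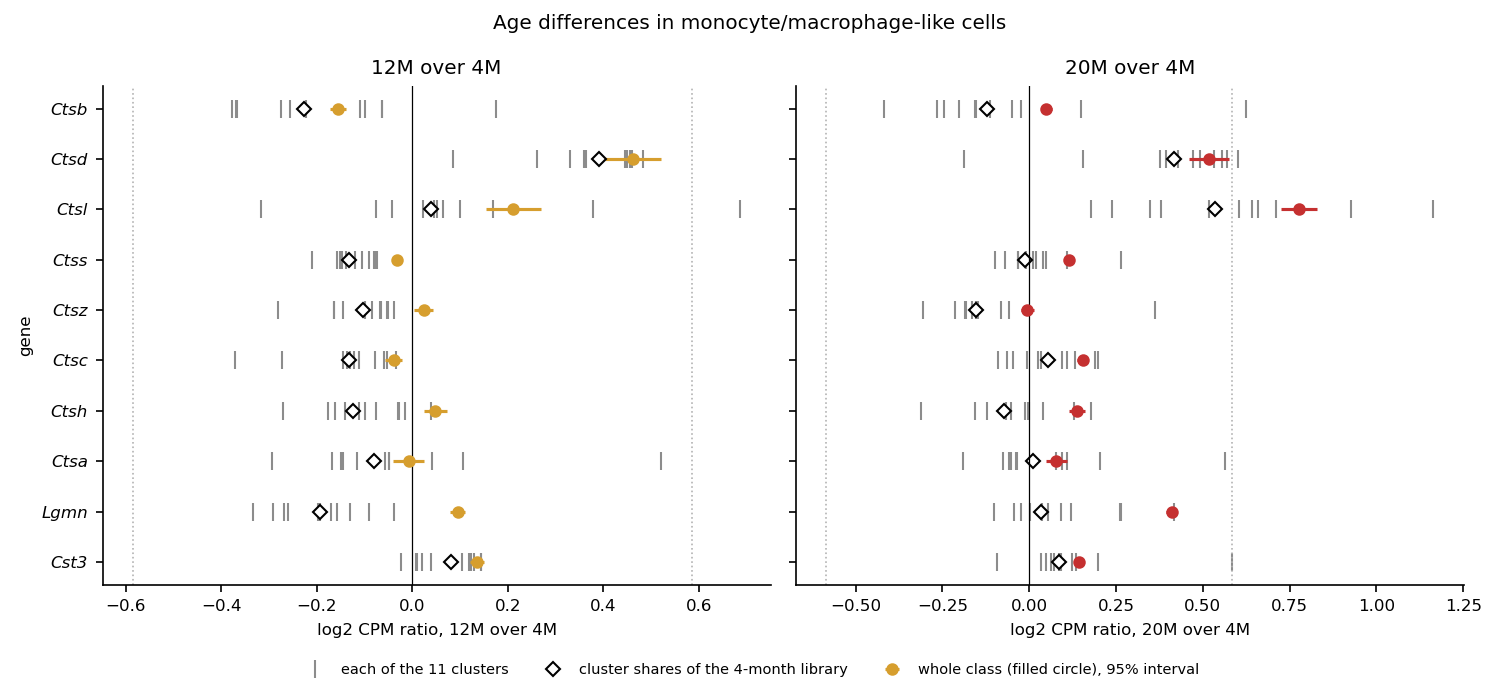
Log2 ratio of CPM at 12 months (left) and 20 months (right) to 4 months in monocyte/macrophage-like cells for each gene; filled circles are the class with its 95% counting interval, grey ticks the 11 clusters and open diamonds the class with the cluster shares of the 4-month library. Ctsl at 20 months is the only class value past the dotted 1.5-fold lines, and the Lgmn diamond lies at 0.04 while its circle lies at 0.41.

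In dendritic cells the age values differed by subtype. Over all named dendritic cell-like cells 0 of 10 members were past 1.5-fold at 12 or 20 months, where 2.48% of 3547 and 3.93% of 3585 genes were. Cst3 in type 2 cells was at 3506, 4489 and 5011 CPM, lowest at 4 months, with a log2 ratio of 0.52 (0.48 to 0.55) at 20 months. Per cell the median was 23.7, 28.3 and 33.0 counts per 10000, and the upper quartile was 34.8, 52.4 and 63.6. In the same cells the 8 type 1 dendritic markers, which accompany high Cst3 elsewhere, summed to 565, 586 and 608 CPM and the 9 mature dendritic markers to 234, 401 and 198 CPM. The 12 monocyte/macrophage markers summed to 3388, 3379 and 2826 CPM. None of these markers was at 0 counts, and their part in the Cst3 value was not tested. In mature dendritic cell-like cells Lgmn was lower at both later ages, with ratios of -0.42 (-0.55 to -0.30) and -0.19 (-0.33 to -0.05). Ctsz in those cells had a ratio of -0.40 (-0.55 to -0.25) at 20 months. The mature class had 137, 169 and 102 cells.

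In T cell-like cells 0 of the 9 members that could be compared were past 1.5-fold at 12 months, where 1.94% of 3086 genes were. At 20 months 2 of 9 were, Ctsh and Lgmn, where 4.01% of 3118 genes were. These are the levels read above as background (Lgmn) or as inside the full range of the markers (Ctsh). The macrophage markers' median share in T cell-like cells was highest in the same library, at 9.65%. The part of this background in both ratios was not tested. Ctsh was at 73.4, 85.5 and 112 CPM and Lgmn at 116, 128 and 174 CPM. Ctsl, at 17.3, 17.1 and 27.2 CPM, was too low to be compared. The T cell-like class holds a cluster of 167 cells, Dpf3 Sim1, with high levels at the later ages only: 136, 425 and 546 CPM of Lgmn and 971, 1896 and 2438 CPM of Ctss. Its marker score, 0.590, was the lowest of the named clusters, so its T cell-like name is weak. Its median depth was 4551.5, 6750.5 and 13894 counts, against 5113, 5984.5 and 5711 in the other T cell-like cells. Whether its cells are mixed with others was not tested. Without it Lgmn was at 116, 122 and 146 CPM and Ctsh at 73.2, 80.6 and 92.4 CPM, with a 1.26-fold difference at 20 months for each. In NK cell-like cells 0 of 9 members were past 1.5-fold at 12 or 20 months, where 1.86% of 2910 and 1.66% of 2898 genes were.

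The other genes of the pathway, grouped by function, mostly lay within 1.5-fold in macrophages at 20 months, where 3.36% of 3269 genes were past it. Of other cathepsins and lysosomal peptidases 4 of 10 could be compared and 0 were past the fold: Tpp1, a tripeptidyl peptidase, was at 50.1, 55.3 and 57.4 CPM. Ctsw, a cathepsin of cytotoxic lymphocytes, was at 88.6, 122 and 89.4 CPM in macrophages and at 766 CPM in NK cell-like cells at 4 months. Of lysosomal hydrolases and their cofactors 13 of 18 could be compared, 0 were past the fold and 10 were above 0, where 1343 of all 3269 genes were. With the cluster shares of the 4-month library 5 of these 13 were above 0, where 1340 of all 3269 genes were. Of the membrane and sorting genes 8 of 14 could be compared and Cd63, a tetraspanin of late endosomes, was past the fold at 112, 151 and 203 CPM, a log2 ratio of 0.86. Of the subunit genes of the proton pump that acidifies the compartment, 14 of 16 could be compared, 0 were past the fold and 9 were below 0, where 1926 of all 3269 genes were, for example Atp6v1e1 at 196, 166 and 166 CPM. With the cluster shares of the 4-month library 2 of these 14 were above 0, where 1340 of all 3269 genes were. Cstb, an intracellular inhibitor of cathepsins, was at 722, 582 and 632 CPM and was the only other cystatin or stefin of 8 that could be compared. None of the 4 regulators of lysosome genes reached 50 CPM, the highest being Tfe3 at 30.6, 26.9 and 28.4 CPM and Mitf at 30.5, 30.9 and 32.5 CPM.

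Of the 11 partners of these proteases in class II presentation, 8 could be compared and 0 were past 1.5-fold at either age. All 8 had log2 ratios above 0, with medians of 0.35 at 12 months and 0.17 at 20 months, where 1496 of 3274 and 1343 of 3269 genes were above 0. With the cluster shares of the 4-month library 8 of 8 were above 0 at 12 months, with a median of 0.16, and 6 of 8 at 20 months, with a median of 0.01. With those shares 1398 of 3274 and 1340 of 3269 of all genes were above 0, with medians of -0.021 and -0.034. The H2-Ab1 C1qb cluster, led by class II genes, had 641, 664 and 931 cells. H2-Eb1, a class II chain, was at 3748, 5410 and 5142 CPM. Ifi30, a reductase that opens disulfide bonds of antigens for cathepsins, was at 844, 963 and 1185 CPM. Of a list of 8 granule protein genes, mostly of proteases that cathepsin C activates, 3 could be compared in macrophages. Gzma and Gzmc were past 1.5-fold and lower at 20 months, where 3.36% of 3269 genes were past it in either direction. Gzma was at 189, 126 and 64.2 CPM and Gzmc at 58.1, 48.6 and 26.4 CPM. The 4-month NK cell-like class had 3772 CPM of Gzma and 1160 CPM of Gzmc, and the NK cell markers in the macrophage class were lower at 20 months as given above.

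Likeness of pattern was measured as Pearson's r of log2(CPM + 10) over 74 points of cluster and library, among 8017 genes. The points share libraries and cell classes, so r is a description. The closest gene to Ctss was Cyp4f18 at 0.980, followed by Ctsc at 0.976. The closest to Ctsc was Cyp4f18 too, at 0.985. Ctsz and Ctsh were alike at 0.969. Ctsb had Blvrb at 0.939 and Grn, the progranulin gene, at 0.934, and the same pair stood at 0.904 and 0.871 for Ctsl. Cst3 was closest to Batf3, a factor of type 1 dendritic cells, at 0.927, and its r with the other members ran from -0.758 with Ctsd to 0.732 with Ctsz. Lgmn was closest to Renbp, Ctss and F11r, each at 0.931. Ctsa was closest to the proton pump accessory gene Atp6ap1 at 0.903. For Ctsd the closest gene was the overlapping Gm49369 at 0.979, with Pld3, a lysosomal nuclease, next at 0.846. Its r with each of the 9 other members was below 0, from -0.103 with Ctsa to -0.758 with Cst3.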

How the data were processed

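The authors deposited raw counts per gene and cell, whole numbers with a different total in each library, and the submitters' processing notes name STAR 2.7.10a and GRCm38. The annotation, the cell calling, the use of strand and whether molecules or reads were counted are not given in the sources used here. Of the listed identifiers, 54349 (98.1%) occur in GENCODE M21, from which positions were taken. Sequences come from RefSeq tables on GRCm38.p6, and 8 of 10 members had a promoter entry.

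Cells with under 500 counts (0 cells) or over 15% mitochondrial counts (2 cells) were left out, and the 6% of cells per library with the highest Scrublet doublet scores were removed (863, 879 and 881). Median counts of the retained cells were 6726, 7328 and 6863, and the lowest deposited cell had 3555. The cells of the 3 libraries were clustered together with no batch correction (scanpy 1.11.5, leidenalg 0.10.2, 2000 variable genes, 30 components, 15 neighbours, resolution 1.0, seed 0). The members, all pathway lists and 11 genes that set 1 library apart were left out of the clustering. Clusters were named from marker lists. A cluster of 4964 cells (Dapl1 Gzmm) and another of 116 (Cyp7b1 Apod) stayed unnamed and outside every class. The Dapl1 Gzmm cluster scored 0.744 on the T cell list, with 8 markers detected. The Cyp7b1 Apod cluster scored 0.781 on the type 2 dendritic cell list, with 6 detected. The names were withheld because the 10 top genes of each included 0 from that list, while another list was represented. Results of the T cell-like class thus leave out the 1062, 1872 and 2030 Dapl1 Gzmm cells.

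Levels are summed counts per class and library as CPM, with exact Poisson intervals. Age differences are log2 ratios with exact conditional binomial intervals, and shares are from cells thinned to 3000 counts, with no cell left out. With 1 library per age no test was run. The calculations were tested on simulated data with 200 changed genes. The members and lists were chosen with earlier results of these data known. Named are all 10 members, from each of 8 pathway lists the 4 genes with the largest ratio at 20 months and the 2 with the highest level, and for each member the 3 genes of most similar pattern, of which the text gives examples. Alternatives changed doublet removal, resolution, joint clustering, scaling, cell weighting, subtraction of the T cell-like level, the count minimum, the cluster shares, the fold, the CPM minimum and the thinning depth.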

Additional observations from a re-analysis of the deposited data

Results flagged for a closer look

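Several members had age ratios of opposite sign in a dendritic cell-like class and in monocyte/macrophage-like cells, with both counting intervals away from 0. Each difference between classes is between single libraries and was not tested. In type 2 dendritic cell-like cells at 20 months the log2 ratio to 4 months was -0.19 for Ctsb, -0.053 for Ctss and -0.16 for Ctsa, where macrophages had 0.05, 0.11 and 0.08. In type 1 dendritic cell-like cells at 20 months Ctss was at -0.12. In mature dendritic cell-like cells Ctsh was at -0.23 at 12 months and -0.25 at 20 months, where macrophages had 0.05 and 0.14. Lgmn in the mature cells was at -0.42 at 12 months and -0.19 at 20 months, where macrophages had 0.09 and 0.41. Cst3 in the mature cells was at -0.20 at 12 months, where macrophages had 0.14.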

How the results depend on the processing

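No paired analysis was possible because there was 1 library per age, and for the same reason no library could be left out. Of 56 summary values under the alternatives, 45 moved by less than the counting interval or kept their count within 1.5-fold. The log2 ratio of the summed members at 12 months, 0.0025 in the main analysis, was -0.0028 with at least 5000 counts per cell, -0.11 with the cluster shares of the 4-month library, -0.025 without the Pf4 Cd81 cluster and 0.019 with median-of-ratios scaling; it was also below 0 with each library clustered separately (-0.00045) and as a mean of per-cell CPM (-0.00028). At 20 months, 0.146 in the main analysis, it was 0.141 with no doublets removed, 0.154 as a mean of per-cell CPM, 0.0913 without the Pf4 Cd81 cluster, 0.184 with median-of-ratios scaling and -0.0028 with the 4-month cluster shares. The number of members past 1.5-fold at 20 months was 0 instead of 1 with those shares, and 0 at 2-fold. With the 4-month shares the sign also reversed for Ctsz (-0.10), Ctsh (-0.12) and Lgmn (-0.19) at 12 months and for Ctsb (-0.12), Ctss (-0.011) and Ctsh (-0.072) at 20 months. Without the Pf4 Cd81 cluster it reversed for Ctsz (-0.0026) and Lgmn (-0.011) at 12 months and Ctsb (-0.12) at 20 months. Of 200 age ratios of single members under the alternatives, 12 had another sign: these 9, and 3 whose counting interval includes 0, Ctsa at 12 months (0.0085) and Ctsz at 20 months (0.032) with median-of-ratios scaling and Ctsz at 20 months (0.00058) as a mean of per-cell CPM. Ctsd minus its T cell-like level was below 0 and has no ratio. On the median-of-ratios scale the later library lay -0.0164 at 12 months and -0.038 at 20 months from the CPM scale, and every ratio is higher by that much. The alternatives without the Pf4 Cd81 or Dpf3 Sim1 cluster, with Gm49369 added to Ctsd and with the library-specific genes kept were chosen after seeing the data. The precision is limited by 1 library per age, by small classes such as plasmacytoid (52 to 61 cells), B cell-like and mast cell-like cells and, for Ctsd, by the overlapping gene.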

Other observations

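In mast cell or basophil-like cells, a class of 9, 18 and 17 cells, Ctsd was at 771, 793 and 761 CPM, above every class described, with the reservation on the overlapping gene Gm49369. In fibroblast-like cells, of 51, 31 and 46 cells, Cst3 was at 2090, 2014 and 1974 CPM, near its level in macrophages, while Ctss was at 563, 607 and 614 CPM. B cell-like cells, of 25, 26 and 22 cells, had 284, 210 and 396 CPM of Ctsc and 278, 232 and 408 CPM of Ctsh. Neutrophil-like cells numbered 9, 11 and 5, and their Ctss level was 3802, 932 and 1775 CPM.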
